A study of Mus musculus with 16 samples.

Results

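The comparison described here is the effect of a high glucose medium in macrophages that were all loaded with oxidized low-density lipoprotein (ox-LDL). It sets the 4 libraries of the group H_O (high glucose with ox-LDL) against the 4 libraries of the group L_O (ox-LDL without high glucose), 8 of the 16 RNA sequencing libraries of the series, and takes every gene of the deposited count table. The cells were starch-elicited peritoneal macrophages of 8-week-old wild-type C57BL/6 mice (6% starch), cultured in DMEM with fetal bovine serum. All 8 libraries came from cells given ox-LDL for 48 h at a concentration labelled 50 mg/ml, a unit printed here as the labels give it. H_O additionally received 33 mmol/L glucose, while the glucose concentration of the L_O medium is not stated in the labels. The 8 remaining libraries had no ox-LDL: L_C carries a label of 27.5 mM mannitol, a sugar alcohol used to match osmolarity, and H_C one of 33 mmol/L glucose. Since the L_O label names no mannitol, glucose and osmolarity cannot be told apart in H_O against L_O. The labels do not say that replicates came from separate mice or cultures, so each p-value here is set against the spread among the 4 libraries of a group, whatever its source.

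As background, macrophages take up oxidized lipoprotein through scavenger receptors such as Cd36 and Msr1, store the cholesterol as ester in lipid droplets and become foam cells, the cell type that fills early atherosclerotic plaques. Excess sterol activates the nuclear receptor LXR, which turns on cholesterol export, and holds back the transcription factor SREBP2, which drives cholesterol synthesis. Glucose is sensed in part through the transcription factors MondoA and ChREBP, whose best-known target is the alpha-arrestin Txnip, while the transcription factor NFAT5 responds to hypertonic medium by turning on transporters of organic osmolytes.

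The 8 libraries held between 32596640 and 39302502 reads assigned to genes, so counting error is small beside the spread between libraries for all but the lowest genes. Levels are given as CPM, counts scaled to the library total and corrected for composition, and differences as log2 fold changes of H_O over L_O. The first principal component carried 34.4% of the variance and separated the groups, with L_O between -9.44 and -6.61 and H_O between 5.87 and 10.6. On the second component (19.4%) H_O replicate 2 stood apart at 12.2 and L_O replicate 3 lay at 7.58, against -6.41 to 0.478 for the others. The macrophage markers summed to 19914 to 20684 CPM in L_O and 21012 to 22561 CPM in H_O, whereas B cell markers summed to at most 1.90 CPM and T and NK cell markers to at most 8.39 CPM. Most of the macrophage sum was Lyz2, at 14664 to 15246 CPM in L_O and 15882 to 17313 CPM in H_O.

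Of 12861 genes tested with edgeR's quasi-likelihood test, 718 (5.58%) were higher and 901 (7.01%) lower in H_O at a Benjamini-Hochberg adjusted p under 0.05, together 12.6%. Most changes were small: 82 genes (0.638%) rose and 22 (0.171%) fell by at least 2-fold, and the median over all tested genes was 0.00 on the log2 scale. The 4 H_O libraries lay above all 4 L_O libraries for 1132 genes (8.8%) and below them for 1242 (9.66%). A fit on all 16 libraries, which takes in the spread among the ox-LDL-free samples, called 367 higher and 459 lower. Among well-expressed genes whose groups did not overlap, the largest rises were those of the transporters Slco4a1 and Slc6a12, and the largest falls those of Gbp8, Ccnd1 and Cd5l.

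**Figure D1:**
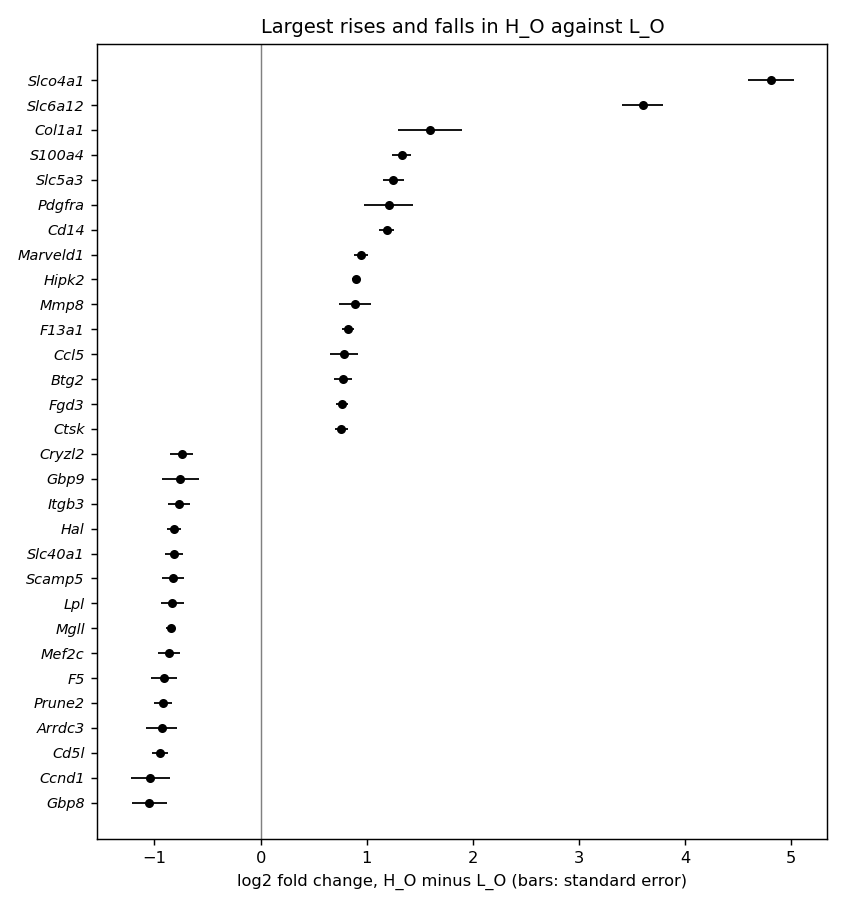
Log2 fold changes of H_O minus L_O for the 15 largest rises and the 15 largest falls among well-expressed genes whose H_O and L_O libraries do not overlap (points, with bars for the standard error of the fit). Slco4a1 (4.81) and Slc6a12 (3.60) stand far to the right of all other genes, and the falls reach -1.05 at Gbp8.

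The transporter Slco4a1 showed the largest change of the genes chosen by this rule. It encodes an organic anion transporter known for carrying thyroid hormones and lies on chromosome 2 from 180456245 to 180474867 (mm10). Its level was 0.62, 1.34, 0.89 and 0.671 CPM in the L_O libraries and 28.3, 29.9, 18.5 and 23.8 CPM in the H_O libraries. The groups were far apart, the lowest H_O library at 18.5 CPM and the highest L_O library at 1.34 CPM. The fold change was 28.1 (log2 4.81 ± 0.22 SE, edgeR adjusted p = 3.12e-08). A related transporter, Slco3a1, rose from 17.2 ± 1.6 to 24.4 ± 2.02 CPM (SD, n = 4 each; log2 0.50), and in the list of glucose and anion transporters 3 of 12 tested members were higher and 1 lower.

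The next rise among the genes chosen by this rule was that of Slc6a12, the betaine and GABA transporter BGT1, a classical hypertonicity-induced gene on chromosome 6 (121343076 to 121365775). Its L_O libraries read 1.33, 1.48, 1.72 and 1.09 CPM and its H_O libraries 16.7, 23.4, 13.6 and 14.8 CPM, a rise of 12.1-fold (log2 3.60 ± 0.19, edgeR adjusted p = 1.29e-07). Because this gene is a textbook NFAT5 target, the window before its RefSeq start is shown in 5′ to 3′ direction, with the stretch matching the NFAT5 consensus in capitals.
Slc6a12, chr6:121342459-121342549, plus strand, GRCm38.p6: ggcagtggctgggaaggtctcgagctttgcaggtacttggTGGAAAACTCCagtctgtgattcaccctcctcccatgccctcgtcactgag
The match lies 75 bases before a RefSeq start. The consensus was not in the first set of motifs and was added to the search. The consensus occurs in 4.32% of the 32536 promoter windows of 250 bases, searched on both strands, and in 1 of the 17 windows of 7 genes with an entry (6 osmotic list members that rose, and Slco4a1), so the match describes this window and no more. The shorter form, TGGAAA followed by any 5 bases, contains every consensus match and occurred in 18.3% of all windows and in 3 of those 17.

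Other genes of osmolyte handling rose with it, as the plot of osmolyte transporters by library shows. Slc5a3, the sodium and myo-inositol cotransporter, was at 8.78, 9.82, 11.1 and 8.55 CPM in L_O and at 24.3, 21.7, 21.1 and 24.1 CPM in H_O (log2 1.25 ± 0.10, edgeR adjusted p = 3.98e-06). Its annotated exons overlap those of Mrps6 on the same strand. Slc38a2, a neutral amino acid transporter induced by hypertonicity and by amino acid shortage, went from 180, 191, 191 and 184 CPM to 281, 284, 279 and 284 CPM. That change was 0.60 ± 0.031, with an SD of 2.31 CPM in H_O. Slc6a6, the taurine transporter, is abundant in these cells and rose by a small step, from 1816 ± 49.8 to 2041 ± 72.4 CPM (log2 0.17, edgeR adjusted p = 0.00348). Nfat5 itself read 92.2 ± 7.3 CPM in L_O and 108 ± 3.73 CPM in H_O (log2 0.22, adjusted p = 0.0129), a call that the fit on all 16 libraries did not keep (adjusted p = 0.273). The kinase gene Sgk1, known to respond to cell shrinkage, rose from 364 ± 16.6 to 454 ± 38.4 CPM (log2 0.32).

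The osmotic stress list, like the other lists, was chosen with earlier results of these data known, so its counts are a description. In all, 7 of its 18 tested members were higher and 0 lower, against 5.58% and 7.01% over all genes, and the list's median was 0.13. The seventh of them, S100a4, a calcium-binding protein of motile cells, was at 24.8, 32.4, 32.2 and 30.2 CPM in L_O and 82.4, 67.2, 69 and 83.4 CPM in H_O (log2 1.33 ± 0.090, edgeR adjusted p = 1.2e-06). Of its 50-base stretches 47.4% also occur in transcripts of other genes, and its exons overlap those of Gm42674, so its reads may be divided between entries. Members that missed the threshold included Akr1b3, the aldose reductase that makes sorbitol, at 103 ± 2.94 and 97 ± 5.83 CPM (log2 -0.09, adjusted p = 0.242). The chaperone gene Hspa4l missed it as well, at 48.5 ± 1.32 and 45.5 ± 1.97 CPM (log2 -0.10, adjusted p = 0.223). A p that misses the threshold does not show that a gene stayed level. Outside the list, and chosen after its values were seen, the sodium pump regulator Fxyd2 was nearly silent in L_O (0 to 0.682 CPM) and at 2.66 to 4.74 CPM in H_O (log2 3.68 ± 0.59). The pump subunit Atp1b3 rose from 312 ± 10.4 to 435 ± 20.3 CPM (log2 0.48, edgeR adjusted p = 3.98e-06).

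**Figure D2:**
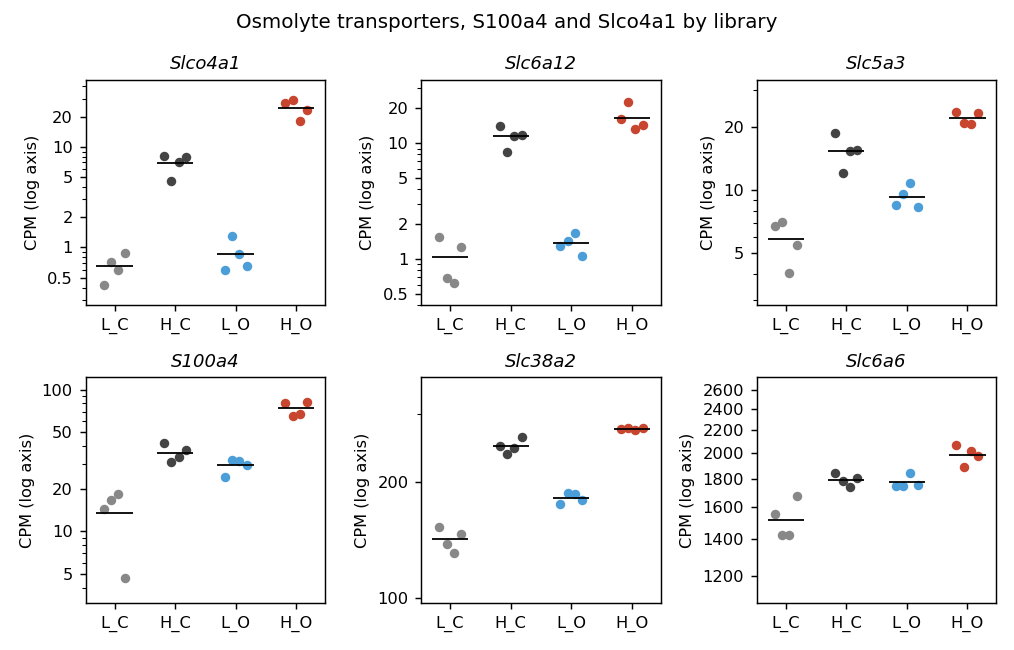
CPM on log axes of 6 genes in the 16 libraries, in the order L_C, H_C, L_O, H_O (points are libraries, lines the group means). In each panel the 4 H_O libraries lie above the 4 L_O libraries, widely for Slco4a1 and by a small step for Slc6a6, and the H_C mean also lies above the L_C mean.

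The alpha-arrestins, which pull nutrient transporters from the cell surface, did not move as a block. Txnip, the arrestin that restrains glucose uptake and binds thioredoxin, was at 143, 134, 146 and 148 CPM in L_O and 180, 174, 173 and 185 CPM in H_O. The groups did not overlap, and the rise was 1.24-fold (log2 0.31 ± 0.039, edgeR adjusted p = 0.000209). Its paralogue Arrdc4, a partner target of the same glucose sensors, read 28.8, 27.6, 26.8 and 24.9 CPM against 38.3, 44.4, 35.2 and 35.9 CPM (log2 0.51 ± 0.076, adjusted p = 0.000779). Arrdc3 went the other way, from 16, 12, 11.4 and 14.3 CPM to 8.21, 6.39, 8.03 and 5.56 CPM (log2 -0.93 ± 0.15, adjusted p = 0.00102). The windows before Txnip and Arrdc4 are shown because both are known for carbohydrate response elements, which are built from a pair of E-box-like motifs. Capitals mark such a pair with its spacer in Txnip and a full E-box in Arrdc4.
Txnip, chr3:96557832-96557928, plus strand, GRCm38.p6: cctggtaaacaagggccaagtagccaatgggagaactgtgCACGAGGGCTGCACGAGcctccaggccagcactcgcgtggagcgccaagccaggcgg
Arrdc4, chr7:68749386-68749471, minus strand, GRCm38.p6: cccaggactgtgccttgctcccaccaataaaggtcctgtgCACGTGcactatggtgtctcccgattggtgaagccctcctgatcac
The Txnip stretch, 85 bases before the start, matches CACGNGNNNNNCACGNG, a pattern written after the sequence was seen and found in 15 of 32536 windows (0.0461%). The E-box CACGTG of Arrdc4, 193 bases before the start, occurs in 6.04% of windows. A looser form of the element, CANGNGNNNNNCNCNTG, is in 0.458% of windows and in none of the 5 windows of the 3 arrestin genes. Both strands were searched for each, and a match is a description of these letters.

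Among 13 tested members of the glucose-sensing list, 2 were higher (Txnip, Arrdc4) and 2 lower (Arrdc3 and the clock repressor Bhlhe40, log2 -0.21). The glucose transporter Slc2a1 was at 46.8 ± 3.16 CPM in L_O and 50.6 ± 1.68 CPM in H_O and did not pass (log2 0.11, adjusted p = 0.232). Slc2a6, a lysosomal hexose carrier of activated macrophages, rose from 28.5 ± 0.645 to 35.4 ± 5.48 CPM (log2 0.31, edgeR adjusted p = 0.035), a call lost in 8 of 17 alternative settings (adjusted p up to 0.0812). Slc37a1, a sugar-phosphate exchanger, fell by 0.51 on the log2 scale (adjusted p = 0.0554 in the fit on all 16 libraries). Glycolysis had 2 of 23 members higher and 0 lower. The larger change was that of Pkm, pyruvate kinase, from 1386, 1447, 1413 and 1338 CPM to 1768, 1861, 1814 and 1748 CPM (log2 0.36 ± 0.031, adjusted p = 6.53e-06), and Pgam1 moved by 0.12. Both share sequence with transcripts of other genes (25.8% and 36.2% of their 50-base stretches), and the exons of Pkm overlap those of Gm49759 on the same strand.

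Other routes of glucose carbon showed few calls. H6pd, the pentose phosphate enzyme of the endoplasmic reticulum, rose by 0.29 as 1 of 9 members. The polyol and hexosamine list had 0 of 13 higher and 3 lower: Gfpt1, the entry enzyme of the hexosamine pathway (log2 -0.22, lost in 5 of 17 alternatives with an adjusted p of up to 0.108), and the salvage enzymes Nagk (-0.21) and Amdhd2 (-0.17), both without a call in the fit on all 16 libraries (adjusted p = 0.121 and 0.0582). Of 27 genes of the tricarboxylic acid cycle 2 were lower, Idh2 (-0.27) and the pyruvate dehydrogenase subunit Pdha1 (-0.17). Of 31 nuclear genes of oxidative phosphorylation edgeR called 0, with 3 at an unadjusted p under 0.05, DESeq2 and limma-voom called 0, and the median was -0.01. In the mitochondrial genome 1 of 13 genes passed, mt-Nd6 (log2 -0.17), whose reads overlap mt-Nd5 on the other strand, and its call was lost in 9 of 17 alternatives (adjusted p up to 0.819).

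**Figure D3:**
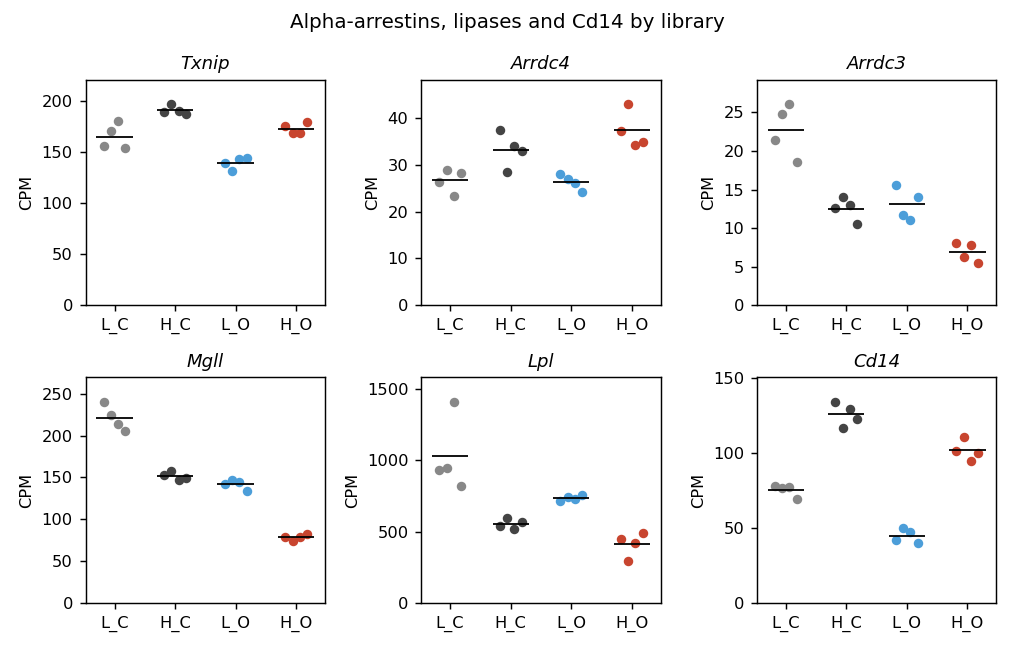
CPM of 3 alpha-arrestins, 2 lipases and Cd14 in the 16 libraries (points are libraries, lines group means, axes from 0). Txnip, Arrdc4 and Cd14 are higher and Arrdc3, Mgll and Lpl lower in every H_O library than in every L_O library.

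The lipid droplet and PPAR target list had 2 of 26 members higher and 6 lower. Of the genes that break down lipid, Mgll, monoacylglycerol lipase, which frees the last fatty acid from glycerol, was at 146, 150, 148 and 137 CPM in L_O and 80.9, 76.7, 80.9 and 84.5 CPM in H_O. All H_O libraries were far below all L_O libraries, a fall of 1.8-fold (log2 -0.85 ± 0.042, edgeR adjusted p = 7.4e-08). Lpl, the secreted lipoprotein lipase, read 733, 762, 745 and 780 CPM against 463, 305, 431 and 504 CPM (log2 -0.83 ± 0.11, adjusted p = 0.000242), with H_O replicate 2 the lowest. Lipa, the lysosomal acid lipase that hydrolyses cholesteryl ester, went from 2634 ± 24.6 to 2334 ± 143 CPM (log2 -0.18). The falls in the lipid droplet and PPAR target list included Pparg, the lipid-activated nuclear receptor (54.4 ± 1.99 to 46.3 ± 3.09 CPM, log2 -0.24), the fatty acid carrier Fabp5 (log2 -0.26) and the beta-oxidation subunit Hadhb (log2 -0.27). The fit on all 16 libraries kept none of these 3 (adjusted p = 0.0507, 0.293 and 0.107). Angptl4, a secreted inhibitor of lipoprotein lipase, rose from 26.1, 31.2, 23.2 and 24.7 CPM to 33.6, 38.4, 38.7 and 33.8 CPM (log2 0.46 ± 0.087, adjusted p = 0.00404), also without a call in that fit (adjusted p = 0.146). The lipid droplet coat gene Plin2 was at 1623 ± 38.9 and 1577 ± 59.3 CPM (log2 -0.04, adjusted p = 0.4).

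Of the scavenger receptors, Cd36 was at 4641, 4747, 4796 and 4787 CPM in L_O and 4714, 3967, 4298 and 4545 CPM in H_O. The groups overlapped at H_O replicate 1, and the change of -0.12 missed the threshold (edgeR adjusted p = 0.0832). Msr1, scavenger receptor A, fell from 504 ± 21.4 to 430 ± 21 CPM (log2 -0.23, adjusted p = 0.0019). The beta-glucan receptor Clec7a fell from 1097 ± 46.6 to 787 ± 38.4 CPM (log2 -0.48, adjusted p = 4.28e-06). Cd5l, a secreted scavenger protein of tissue macrophages, was at 74.7, 68.4, 67.4 and 74.9 CPM in L_O and 42.8, 31.9, 37 and 36.8 CPM in H_O (log2 -0.95 ± 0.075, adjusted p = 3.98e-06). Stab1, a scavenger of matrix and modified lipoprotein, rose from 234 ± 16.9 to 293 ± 6.7 CPM (log2 0.32). Olr1, the LOX-1 receptor, was scarce at 1.73 ± 0.211 and 1.02 ± 0.377 CPM, and its change of -0.77 did not pass (adjusted p = 0.146). Among the 15 tested members of the list 2 were higher and 3 lower.

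Genes of cholesterol synthesis lay on the lower side, with 8 of 25 members lower and 1 higher and a median of -0.12, against 7.01% lower over all genes. Sqle, squalene epoxidase, fell from 41.4, 42.1, 41.1 and 40 CPM to 32.2, 31.5, 29.5 and 29.6 CPM (log2 -0.42 ± 0.052, edgeR adjusted p = 0.000149). Hmgcs1, an early enzyme of the mevalonate pathway, fell from 92.1 ± 4.24 CPM in L_O to 79 ± 4.3 CPM in H_O (log2 -0.22), and Srebf2, the gene of SREBP2 itself, from 168 ± 4.91 to 151 ± 4.68 CPM (log2 -0.15, adjusted p = 0.0135). Cyp51 (log2 -0.21, adjusted p = 0.0861 in the fit on all 16 libraries) and Msmo1 (-0.22), which demethylate sterols, and Mvk, mevalonate kinase (-0.37, lost in 12 of 17 alternatives with an adjusted p of up to 0.141), were lower as well. Each of these falls was at most 1.34-fold.

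LXR targets split, with 6 of 20 members higher and 3 lower. Apoe, the apolipoprotein that carries cholesterol out of foam cells, rose from 4858, 5222, 5193 and 4848 CPM to 6668, 6625, 7189 and 6576 CPM (log2 0.42 ± 0.034, edgeR adjusted p = 4.28e-06). Abca7, a lipid transporter of phagocytes, rose from 58.9 ± 4.27 to 88 ± 2.5 CPM (log2 0.58, adjusted p = 9.36e-06). The lipase activator Apoc2 rose from 3.08 ± 0.844 to 7.98 ± 2.18 CPM (log2 1.37), but 78.3% of its 50-base stretches occur in transcripts of other genes as well, so that its reads are uncertain. The main export pumps moved little: Abca1 was at 171 ± 9.6 and 159 ± 6.28 CPM (log2 -0.12, adjusted p = 0.111) and Abcg1 at 199 ± 7.18 and 217 ± 0.503 CPM (log2 0.12, adjusted p = 0.0293, lost in 7 of 17 alternatives with values up to 0.0866). Mertk, the receptor for apoptotic cells, rose by 0.18, and its ligand Gas6 from 281 ± 13.1 to 349 ± 11.6 CPM (log2 0.31, adjusted p = 0.00015). In fatty acid synthesis 1 of 19 members rose, Fasn, fatty acid synthase, from 31.3, 37.2, 34.2 and 30.7 CPM to 49.7, 59.9, 48.7 and 41.8 CPM (log2 0.58 ± 0.094). The elongase Elovl5 was the 1 member called lower (log2 -0.18), a call lost in 11 of 17 alternatives (adjusted p up to 0.102).

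**Figure D4:**
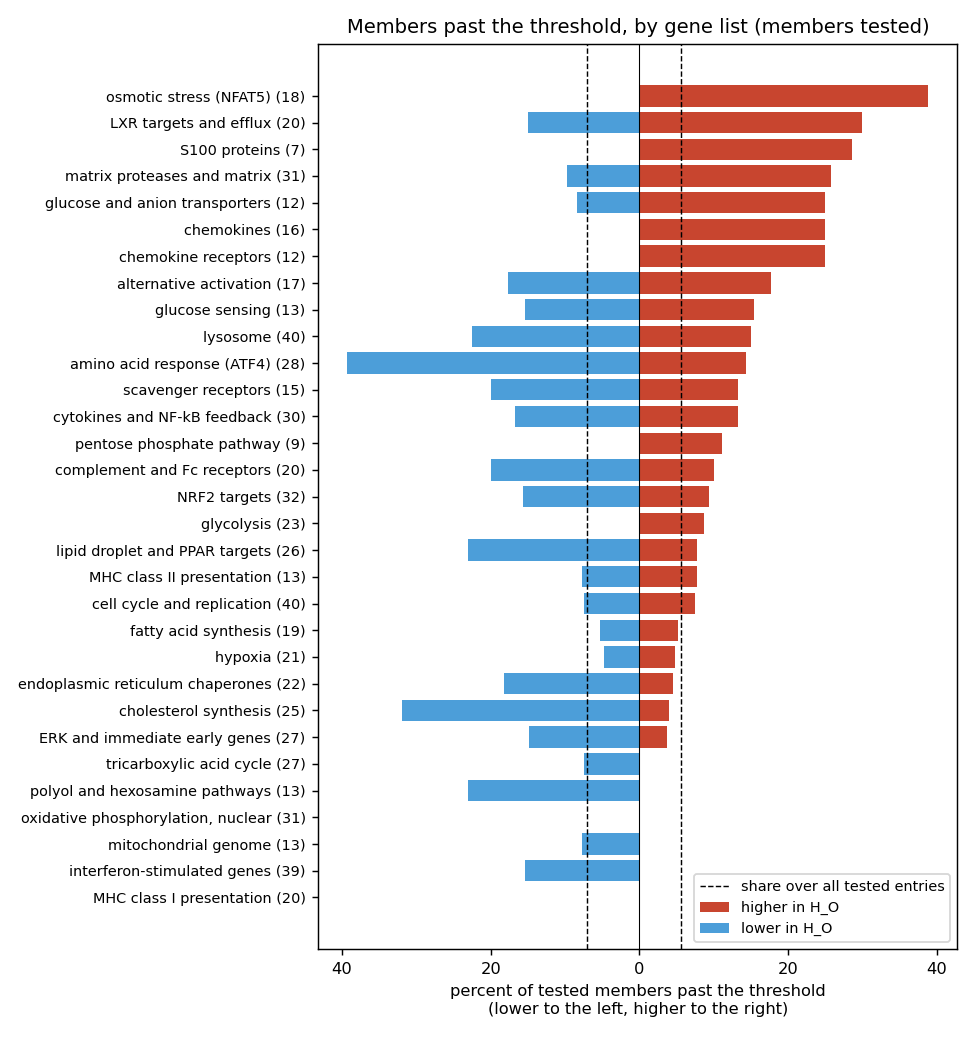
Percent of the tested members of the 31 pathway lists (marker lists are not drawn) past the adjusted p of 0.05, higher to the right and lower to the left, with the number tested in brackets; dashed lines mark 5.58% and 7.01%, the shares over all tested genes. Among these pathway lists the osmotic stress list has the longest bar to the right with 7 of 18 members, and the ATF4 list the longest to the left with 11 of 28. The lists were chosen with earlier results of these data known.

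Genes of the amino acid response, which the transcription factor ATF4 turns on when amino acids run short or the endoplasmic reticulum is stressed, lay mainly on the lower side. Of 28 tested members 11 were lower and 4 higher, with a median of -0.12. Trib3, a pseudokinase that feeds back on ATF4, was at 16.6, 13.5, 11.3 and 15.1 CPM in L_O and 9.1, 8.74, 9.15 and 8.88 CPM in H_O (log2 -0.66 ± 0.11, edgeR adjusted p = 0.00221). Ddit3, the gene of the stress factor CHOP, read 29.5, 29.3, 30.1 and 25.3 CPM against 21.3, 18.2, 18.7 and 18.2 CPM (log2 -0.58 ± 0.077, adjusted p = 0.000309). Both groups were apart in each of these genes. Psat1, of serine synthesis, fell from 43.9 ± 1.41 to 30.4 ± 2.93 CPM (log2 -0.53), Sesn2, a sensor of leucine, by 0.39, Asns, asparagine synthetase, by 0.34, the mitochondrial folate enzyme Mthfd2 by 0.31 and the alanyl-tRNA synthetase Aars by 0.23.

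Members of that list that rose included Slc7a11, the cystine importer, from 122, 127, 121 and 131 CPM to 157, 191, 150 and 164 CPM (log2 0.40 ± 0.061, edgeR adjusted p = 0.000927). Phgdh, the first enzyme of serine synthesis, was also called higher (log2 0.26), but the call was lost in 9 of 17 alternatives (adjusted p up to 0.368) and 47.8% of its 50-base stretches recur elsewhere. In the endoplasmic reticulum list 4 of 22 members were lower and 1 higher. Hspa5, the main chaperone BiP, went from 649 ± 21.4 to 579 ± 27.1 CPM (log2 -0.17, adjusted p = 0.00891), the stress sensor Ern1 fell by 0.17 (adjusted p = 0.0521 without L_O replicate 4) and the lectin chaperone Canx by 0.11 (lost in 7 of 17 alternatives, adjusted p up to 0.138), whereas Xbp1, which Ern1 splices, rose by 0.18. The fit on all 16 libraries did not call Hspa5 (adjusted p = 0.079). NRF2 targets, the antioxidant genes, had 3 of 32 members higher, Slc7a11 among them, and 5 lower, among them Txn1, thioredoxin (log2 -0.19), Prdx1, a peroxiredoxin (-0.17), and Blvrb (-0.18), each without a call in 1 of 17 alternatives, the fit on all 16 libraries. Hmox1, heme oxygenase, was at 548 ± 7.35 and 577 ± 27.2 CPM and did not pass (log2 0.07, adjusted p = 0.214).

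Cd14, the co-receptor that hands lipopolysaccharide to Tlr4, was at 43.1, 51.1, 48.5 and 40.9 CPM in L_O and 104, 114, 97.4 and 103 CPM in H_O, a rise of 2.28-fold (log2 1.19 ± 0.069, edgeR adjusted p = 2.49e-07). Tlr4 itself rose from 131 ± 4.96 to 161 ± 8.93 CPM (log2 0.30, adjusted p = 0.000679). Of 12 chemokine and chemoattractant receptors 3 were higher and 0 lower: Cxcr4, from 108 ± 4.13 to 168 ± 17 CPM (log2 0.64), C5ar1, the receptor of complement C5a, from 113 ± 4.73 to 166 ± 7.82 CPM (0.55), and Fpr1, the receptor of bacterial formyl peptides, from 3.02 ± 1.01 to 7.51 ± 2.15 CPM (1.31). Adjusted p-values for these were 1.71e-05, 3.98e-06 and 0.00315 with edgeR.

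Of 16 tested chemokines 4 were higher and 0 lower, with a list median of 0.52. Cxcl5, a neutrophil attractant, rose from 1.74, 2.9, 3.32 and 2.18 CPM to 6.43, 10.4, 5.12 and 10.3 CPM (log2 1.66 ± 0.25, edgeR adjusted p = 0.000805). Ccl5, an attractant of T cells and monocytes, read 7.54, 6.39, 7.86 and 7.43 CPM against 11.4, 15.9, 12.8 and 10.3 CPM (log2 0.79 ± 0.13). Cxcl16, a membrane-bound chemokine that also binds oxidized lipoprotein, read 57.1, 58.4, 53.1 and 47.3 CPM against 83.7, 124, 84.2 and 69.5 CPM (log2 0.74 ± 0.13). In both genes H_O replicate 2 was the highest library, and the groups did not overlap. Ccl9 rose by 0.36 with overlapping libraries (adjusted p = 0.207 in the fit on all 16 libraries), and Ccl2, the main monocyte attractant, was at 10.2 ± 0.442 and 11.6 ± 1.09 CPM without a call (log2 0.18, adjusted p = 0.258).

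Cytokine genes did not move together, with 4 of 30 members of the cytokine and NF-kB list higher and 5 lower. Tnf was at 12.1, 8.67, 12.2 and 14.7 CPM in L_O and 9.15, 9.61, 11.4 and 8.09 CPM in H_O, overlapping and without a call (log2 -0.32, edgeR adjusted p = 0.185). Without L_O replicate 2 that change was -0.45 with an adjusted p of 0.0442, and over all alternatives the adjusted p reached 0.446. Il1b was too low to be tested. Il1rn, the interleukin 1 receptor antagonist, rose from 29.6 ± 2.28 to 39.2 ± 4.46 CPM (log2 0.40, adjusted p = 0.00537; 0.122 in the fit on all 16 libraries). Vegfa, the angiogenic growth factor, fell from 82.4 ± 3.88 to 63.9 ± 10 CPM (log2 -0.37), Il1a by 0.35, Casp1, the inflammasome protease, by 0.25 and Il18 from 5 ± 0.594 to 3.36 ± 0.45 CPM (log2 -0.58). The calls of Il18 and Il1a were lost in 6 and 3 of 17 alternatives, with adjusted p-values up to 0.0984 and 0.0694.

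Interferon-stimulated genes, the antiviral program of macrophages, had 6 of 39 tested members lower and 0 higher, with a median of -0.24. Oasl1, which restrains interferon induction, was at 23.9, 21, 24.8 and 24.6 CPM in L_O and 17, 15.5, 16.5 and 18.5 CPM in H_O (log2 -0.49 ± 0.081, edgeR adjusted p = 0.00157). Rsad2, the antiviral enzyme viperin, read 28.6, 21.8, 20.3 and 22.9 CPM against 16.2, 17, 16 and 17.6 CPM (log2 -0.49 ± 0.098, adjusted p = 0.00539). Ddx58, the RNA sensor RIG-I, fell from 46.9 ± 1.73 to 36.2 ± 1.83 CPM (log2 -0.38), and Oas1a by 0.29 (adjusted p = 0.0598 in the fit on all 16 libraries) and Ifit3 by 0.57, the latter 2 with 57.6% and 51.2% of their 50-base stretches shared. The call of Ifit3 was lost in 6 of 17 alternatives (adjusted p up to 0.109). The guanylate-binding genes Gbp8 (37, 25.1, 24.2 and 24.3 CPM against 11.6, 18.2, 12.6 and 11.2 CPM, log2 -1.05 ± 0.16) and Gbp9 (log2 -0.76 ± 0.18) also fell, and their annotated exons overlap each other.

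The interferon count was larger without 1 library. In H_O replicate 2 the median log2 ratio of the 39 genes to the L_O mean was 0.01, against -0.30, -0.16 and -0.37 in the other H_O libraries and -0.04 to 0.13 in the L_O libraries. Without that library 17 of 40 tested members were lower and 0 higher, with a median of -0.29. Over all genes 780 were then lower and 597 higher. Leaving out any other single library gave 5 or 6 members lower, and a fit on all groups without H_O replicate 2 called 5 of 40 lower. H_O replicate 2 is also the library that stood apart on the second principal component, and whether the 2 facts are linked was not tested. For MHC class I genes edgeR called 0 of 20 with all libraries (3 at an unadjusted p under 0.05, 2 called by DESeq2 and 0 by limma-voom), and 4 lower without H_O replicate 2. MHC class II and costimulation genes had 1 of 13 higher, the protease Ctss (log2 0.23), and 1 lower, the costimulator Cd86 (-0.39, lost in 9 of 17 alternatives with an adjusted p of up to 0.132).

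Immediate early genes, the fast transcriptional targets of growth factor signalling, had 4 of 27 members lower and 1 higher. Egr2, a zinc-finger factor of alternatively activated macrophages, fell from 72 ± 2.16 to 55.9 ± 7.13 CPM (log2 -0.37), Klf2 from 17.4 ± 0.697 to 13.1 ± 0.615 CPM (-0.41) and Myc from 12.7 ± 1.27 to 9.31 ± 1.47 CPM (-0.44, lost in 7 of 17 alternatives with an adjusted p of up to 0.13), while Jun rose by 0.16 with overlapping libraries (lost in 7 of 17 alternatives with an adjusted p of up to 0.0948). Alternative activation genes were divided 3 to 3 among 17 tested. Mrc1, the mannose receptor, fell from 720 ± 27.5 to 562 ± 32.7 CPM (log2 -0.36, edgeR adjusted p = 0.000108), Clec10a, a galactose-type lectin, from 18.4 ± 2.3 to 11.6 ± 1.62 CPM (-0.67) and Tgfb1 by 0.24 (adjusted p = 0.259 in the fit on all 16 libraries), whereas Chil3 (0.32) and osteopontin, Spp1 (0.33), rose. Of Chil3's 50-base stretches 26.9% recur in other transcripts.

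In the cell cycle list 3 of 40 members were higher and 3 lower (7.5% each), near the 5.58% and 7.01% over all genes. The list's median was 0.19, and 33 of its 40 log2 fold changes were above 0, against 6473 of 12861 over all genes. Ccnd1, the cyclin that drives cells through G1, was at 15.4, 13.7, 11.2 and 14.6 CPM in L_O and 4.48, 5.58, 7.58 and 9.11 CPM in H_O (log2 -1.04 ± 0.18, edgeR adjusted p = 0.00246). Cdkn1a, the cyclin-dependent kinase inhibitor p21, fell too, from 59.3 ± 4.01 to 38.8 ± 4.27 CPM (log2 -0.62, adjusted p = 0.00015). E2f2, a transcription factor of the G1 to S transition, rose from 20.1 ± 0.423 to 32.7 ± 2.88 CPM (log2 0.69), and the replication helicase subunit Mcm7 by 0.39. The antiproliferative gene Btg2 rose from 10.3, 9.85, 10.2 and 10.1 CPM to 15.5, 18.5, 16.7 and 18.7 CPM (log2 0.78 ± 0.088), and Hipk2, a stress-activated nuclear kinase, from 164, 159, 164 and 169 CPM to 323, 316, 293 and 292 CPM (0.90 ± 0.039, adjusted p = 3.12e-08). Of the hypoxia list 1 of 21 members was higher, the histone demethylase Kdm3a (0.20), and 1 lower, Vegfa.

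Proteases and matrix genes had 8 of 31 tested members higher and 3 lower, with a median of 0.21. Htra1, a secreted serine protease, rose from 3.01, 2.9, 2.37 and 2.21 CPM to 6.1, 6.93, 6.07 and 6 CPM (log2 1.25 ± 0.15, edgeR adjusted p = 0.000166). Mmp8, a collagenase shared with neutrophils, read 19.9, 18.1, 18 and 15.2 CPM against 30.3, 46, 31.8 and 24.5 CPM (log2 0.89 ± 0.15). Adam8, a sheddase of leukocytes, rose from 436 ± 11.8 to 580 ± 19.3 CPM (log2 0.41), and Ctsk, the collagen-degrading cathepsin K, from 114, 123, 124 and 103 CPM to 209, 207, 180 and 192 CPM (0.76 ± 0.061, adjusted p = 4.28e-06). The plasminogen activator Plau fell from 327, 297, 289 and 289 CPM to 185, 170, 186 and 179 CPM (log2 -0.74 ± 0.045, adjusted p = 3.94e-07). Its receptor Plaur fell from 192 ± 7.28 to 148 ± 8.43 CPM (-0.38). The syndecan Sdc3 fell by 0.42.

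Collagen genes and others best known from fibroblasts were higher in H_O, though not in every library. Col1a1, the main chain of collagen I, was at 4.03, 7.94, 9.19 and 9.33 CPM in L_O and 21.7, 35.5, 11 and 24.5 CPM in H_O (log2 1.60 ± 0.30, edgeR adjusted p = 0.0035). Pdgfra, a receptor that marks fibroblasts, read 4.22, 5.07, 7.18 and 4.72 CPM against 12.2, 12.2, 7.22 and 17.4 CPM (log2 1.21 ± 0.23). Col3a1 read 2.88, 4.94, 3.89 and 4.83 CPM against 18.7, 24.5, 3.64 and 6.02 CPM (log2 1.67 ± 0.46). H_O replicate 3 lay within or just above the L_O range in all of these genes. Col1a2 (log2 0.88), the proteoglycan Dcn (0.72) and the matrix glycoprotein Sparc (0.97) were also called higher, with H_O replicate 3 the lowest of its group in each. The calls of Col1a2, Col3a1 and Dcn were lost in 6, 9 and 9 of 17 alternatives, with adjusted p-values up to 0.255, 0.217 and 0.293. Bgn (log2 1.08) and Col5a2 (1.25), chosen after their values were seen, were lowest in that library as well. The fit on all 16 libraries called none of the 8 genes of this paragraph, with adjusted p-values of 0.0637 for Col1a1, 0.056 for Pdgfra, 0.161 for Sparc, 0.108 for Bgn and 0.125 for Col5a2.

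These genes are best known from fibroblasts, a cell type that a peritoneal lavage can hold, and which cells gave the reads here is not known. Of 9 tested mesothelial and fibroblast markers 5 were higher and 0 lower, with a median of 0.85. The summed level of all 13 markers was 28.3 to 43.6 CPM in L_O and 91.1, 117, 42.4 and 100 CPM in H_O, below 1% of the level of macrophage markers in each library. The 5 calls fell to 2 with limma-voom, 3 with the replicate block, 0 in the fit on all 16 libraries and 2 to 5 when single libraries were left out, with 5 without H_O replicate 3. In bulk RNA, more cells of a type and more RNA per cell cannot be told apart, and the part of fibroblasts in these rises was not tested. The mesothelial marker Msln was at 0 in 3 of 4 L_O libraries and at most 0.683 CPM in H_O.

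**Figure D5:**
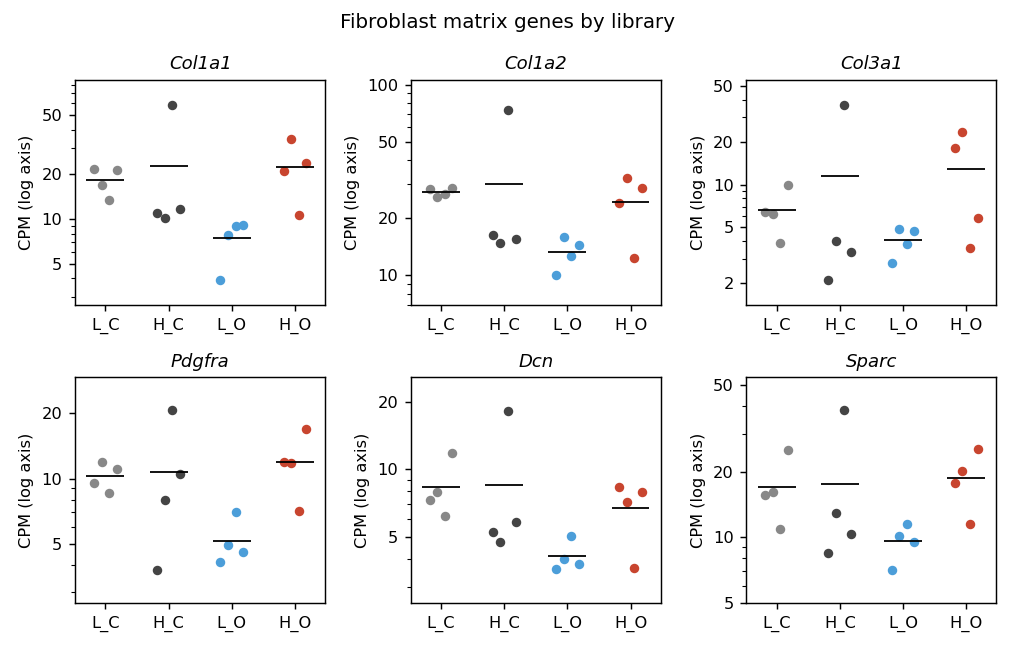
CPM on log axes of 6 fibroblast and matrix genes in the 16 libraries (points are libraries, lines group means). H_O replicate 3, the lowest red point, lies at or near the L_O level in each panel, and in H_C a single library (replicate 3) lies above all others.

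Among markers of the studied cells, Adgre1, the macrophage antigen F4/80, was at 568, 531, 529 and 537 CPM in L_O and 463, 483, 466 and 440 CPM in H_O (log2 -0.23 ± 0.035, edgeR adjusted p = 0.00091; 0.0554 in the fit on all 16 libraries). Csf1r, the receptor of the macrophage growth factor, rose by 0.13 (adjusted p = 0.031, lost in 7 of 17 alternatives with values up to 0.0871) and Lyz2, lysozyme, by 0.13 (adjusted p = 0.00573). In the macrophage marker list 4 of 13 genes were higher and 3 lower. Large peritoneal macrophage markers had 1 of 13 higher, Ltbp1 (0.48, adjusted p up to 0.116 over alternatives), and 1 lower, F5, coagulation factor V, from 12.7, 10.4, 10.9 and 13.2 CPM to 6.43, 5.28, 6.29 and 7.16 CPM (log2 -0.91 ± 0.12). Small macrophage and monocyte markers had 2 of 11 lower, the integrin Itgax (389 ± 13.7 to 299 ± 26.8 CPM, log2 -0.38) and the inhibitory lectin Clec12a (-0.38), and 1 higher, Chil3. Neutrophil markers summed to 94.2 to 108 CPM in L_O and 95.1 to 126 CPM in H_O, with 1 of 4 tested members higher, Mmp8. Most of that sum was Csf3r, at 70.3 to 81.8 CPM in L_O and 63.6 to 72.8 CPM in H_O. Of the dendritic cell, B cell and T and NK cell lists, edgeR called 0 of 4, 0 of 2 and 0 of 9 tested members, with 0, 0 and 1 at an unadjusted p under 0.05, and DESeq2 and limma-voom called 0.

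The remaining large changes fall in no single list. On the side that rose stood F13a1, the macrophage transglutaminase factor XIII-A (42.7, 45.4, 46.9 and 45.8 CPM against 77.7, 89.2, 75.9 and 78.7 CPM, log2 0.83 ± 0.055), Marveld1 (28 ± 1.62 to 54 ± 4.39 CPM, 0.94) and Fgd3, an exchange factor of Cdc42 (39 ± 2.45 to 66.7 ± 3.67 CPM, 0.77). S100a6 rose by 0.48. Complement genes had 2 of 20 members higher and 4 lower: C3 rose from 98.9 ± 5.03 to 154 ± 48.5 CPM (log2 0.64, with H_O replicate 2 at 225 CPM), and Cfp, properdin, fell from 203 ± 6.3 to 142 ± 4.15 CPM (-0.52, edgeR adjusted p = 1.34e-06) and Fcgrt, the neonatal Fc receptor, by 0.40. Lysosomal genes went both ways, with 6 of 40 higher and 9 lower. Beside Ctsk, Gusb, beta-glucuronidase, rose by 0.24, and the sulfatase Galns (-0.28) and the saposin precursor Psap (23103 ± 270 to 21263 ± 650 CPM, -0.12) fell.

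On the side that fell stood Slc40a1, ferroportin, the only known iron exporter of mammalian cells (36.9, 36.7, 36.7 and 40.1 CPM against 23.5, 17.5, 23.2 and 21.3 CPM, log2 -0.82 ± 0.085). Hal, histidine ammonia-lyase, went from 66.5, 59.4, 61.5 and 67.6 CPM to 39.7, 32.5, 36.5 and 36.2 CPM (log2 -0.82 ± 0.064, edgeR adjusted p = 3.98e-06). The transcription factor Mef2c read 36.9, 33.5, 34.4 and 38.3 CPM against 18.6, 16.3, 19.6 and 24.3 CPM (log2 -0.86 ± 0.10). No library of one group reached the other in these genes, which the rule that chose them requires. Itgb3, the integrin beta-3 chain (log2 -0.76), Prune2 (-0.92), Scamp5, a vesicle membrane protein (-0.83), and Cryzl2 (-0.74) were lower by 1.67-fold to 1.89-fold. Spic, the factor of iron-recycling macrophages, chosen after its values were seen, was at 0.297 to 1.23 CPM in L_O and 0 to 0.27 CPM in H_O (log2 -3.13 ± 0.83, adjusted p = 0.0239, lost in 6 of 16 alternatives with values up to 0.0929).

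The same glucose label can be read in the ox-LDL-free cells, where H_C is set beside L_C, whose label names mannitol. Levels in this paragraph are CPM scaled over all 16 libraries, so they differ slightly from those above. Slco4a1 was at 0.653 ± 0.19 CPM in L_C and 6.95 ± 1.62 CPM in H_C (SD, n = 4 each). Slc6a12 was at 1.03 ± 0.453 and 11.6 ± 2.39 CPM, and Slc5a3 at 5.83 ± 1.38 and 15.5 ± 2.75 CPM. Slc6a12 and Slc5a3 were thus higher in H_C than in L_C, and the part of osmolarity in these differences was not tested. Cd14 was at 75.3 ± 4.17 and 126 ± 7.71 CPM, Txnip at 165 ± 12.3 and 191 ± 4.38 CPM, Mgll at 221 ± 15 and 152 ± 5.21 CPM, and Hal at 10.8 ± 1.1 and 4.66 ± 0.599 CPM. Col1a1 was at 18.4 ± 3.91 CPM in L_C and 22.8 ± 23.6 CPM in H_C, where replicate 3 alone reached 58.1 CPM. For some genes the group means without ox-LDL did not show the change seen with it. Mmp8, which rose in H_O, was at 7.3 ± 3.77 CPM in L_C and 4.85 ± 0.563 CPM in H_C, with L_C replicate 4 at 12.8 CPM. Slc40a1, which fell in H_O, was at 11.7 ± 2.34 CPM in L_C and 10.6 ± 1.82 CPM in H_C. Pdgfra, which rose in H_O, was at 10.3 ± 1.51 CPM in L_C and 10.7 ± 7.18 CPM in H_C. The test of the difference between contrasts, given below, called none of Mmp8, Slc40a1 and Pdgfra (edgeR adjusted p = 0.131, 0.229 and 0.538).

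In a fit of the 8 ox-LDL-free libraries 340 genes (2.63%) were higher and 574 (4.43%) lower in H_C. L_C replicate 4 stood apart with 3.71% of its reads on mitochondrial genes, against 1.48% to 2.30% in the 15 other libraries, and without it the counts were 906 and 1123. Leaving out any other single library gave 131 to 302 higher and 295 to 487 lower. Of the genes tested in both fits, 202 were higher in both comparisons, 28.3% of those called with ox-LDL and 59.8% of those called without it, and 276 were lower in both (30.8% and 48.6%). No gene was called in opposite directions. Without L_C replicate 4 the shared genes were 362 (50.5% and 40.1%) and 506 (56.4% and 45.4%), with 3 and 2 in opposite directions. The comparisons share no library.

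Whether the effect of glucose differed with ox-LDL was tested as a difference between the 2 contrasts on all 16 libraries. Of 13527 genes 2 passed (0.0148%), and 1161 had an unadjusted p under 0.05. Ccr1, a receptor of inflammatory chemokines, was at 80.6 ± 6.71 CPM in L_C and 46.3 ± 1.55 CPM in H_C, a change of -0.80, while with ox-LDL it changed by -0.15, which is a difference of 0.65 ± 0.10 (edgeR adjusted p = 0.0381). Gas6 was at 63.5 ± 4.68 and 108 ± 2.83 CPM without ox-LDL (0.77) and rose by 0.31 with it, a difference of -0.46 ± 0.072 (adjusted p = 0.0381). Both were called in 7 of 21 alternatives, with adjusted p-values up to 0.146. DESeq2 called 78 genes with a positive and 17 with a negative difference, and limma-voom called 0. For the transporters Slco4a1 and Slc6a12 and for Txnip the difference was not called. It was 1.42 ± 0.37 for Slco4a1 (edgeR adjusted p = 0.19), 0.12 ± 0.36 for Slc6a12 (adjusted p = 0.947) and 0.10 ± 0.071 for Txnip (adjusted p = 0.763). Cd14 (difference 0.44, edgeR adjusted p = 0.114) and Mgll (-0.30, adjusted p = 0.131) were not called either.

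Without L_C replicate 4 the test called 41 of 13734 genes with a positive (0.299%) and 12 with a negative difference (0.0874%). Cd14 was among them, with a rise larger by 0.48 with ox-LDL than without (edgeR adjusted p = 0.0343). Several others fell with glucose in the ox-LDL-free cells and moved less with ox-LDL: Abca1 (difference 0.42, adjusted p = 0.0315), Msr1 (0.32, adjusted p = 0.045), Rsad2 (0.73, adjusted p = 0.0384) and Plau (0.52, adjusted p = 0.045). Mef2c had a negative difference (-0.82, adjusted p = 0.045), with a larger fall under ox-LDL, and Gas6 kept its call (-0.51, adjusted p = 0.000187). By list, a positive difference was called for 4 of 40 interferon-stimulated genes, 3 of 20 complement and Fc receptor genes, 3 of 13 macrophage markers, 2 of 14 MHC class II genes, 2 of 20 LXR targets and 2 of 31 matrix and protease genes, and a negative one for 0 of each. The other lists had at most 1 call in a direction. In the fit on all 16 libraries the median change of interferon-stimulated genes was -0.57 in H_C against L_C (27 of 40 lower) and -0.23 in H_O against L_O (4 lower), and that of MHC class II genes -0.84 (9 of 14 lower) and 0.02 (0 lower, 1 higher). Over all genes of that fit 7.75% were lower and 5.02% higher in H_C, and 3.39% lower and 2.71% higher in H_O. Without H_O replicate 2 the same fit gave medians of -0.29 (5 lower) and -0.19 (0 lower) for the lists in H_O against L_O, so the MHC class II median changed sign with that library. With all libraries, the 2 genes that passed the test of the difference are in neither list. The label of L_C names mannitol and that of L_O does not, and the part of that in these differences was not tested.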

How the data were processed

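The deposited data are raw read counts, whole numbers for each gene and each of the 16 libraries without normalization by the authors, of which the 8 columns of L_O and H_O carry this comparison. HISAT2, DESeq2 and the mouse build mm10 are named without versions or roles, per the submitters' processing notes. The counting tool, the annotation and the strand setting are not given in the sources used here. Reads of a named gene and an antisense neighbour therefore cannot be told apart, which among others concerns Txnip, Mgll, F5, Ccnd1, Ddit3, Cxcl16, Gas6, Pdgfra, F13a1 and Csf1r. Of 15871 entries, 1594 of them unannotated regions, 12861 passed edgeR's filterByExpr filter.

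Differences were tested on these counts using edgeR 4.0.16 under R 4.3.3 (TMM normalization, quasi-likelihood F test, two-sided, 6 residual degrees of freedom), with Benjamini-Hochberg adjustment over all tested entries and a threshold of 0.05. The difference between contrasts was fitted on all 16 libraries (13527 entries, 12 degrees of freedom). The fit of H_O against L_O was also run on simulated counts, and the fit of the difference between contrasts was not. Replicates of a group differed by more than sampling noise (chi-square per degree of freedom 6.59 to 19.4), so none was merged. Alternatives were RLE and upper-quartile factors, no scaling, no filter or 1 CPM in 4 libraries, DESeq2 1.42.0, limma-voom 3.58.1, a replicate block, a fit on all 16 libraries and leaving out each library.

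Named genes were the 15 largest rises and falls among called entries whose groups did not overlap and whose average log2 CPM reached 3, up to 4 called members of each of 42 lists by adjusted p, and a fixed set of glucose and lipid genes. This gave 128 of the 157 genes named for this comparison, and 29 were chosen after their values were seen. The members and lists were chosen with earlier results of these data known, and H_C against L_C was added after seeing the data. Of 806 list symbols 765 were in the table, and 701 were tested; some members are not reported here. Promoter sequences are RefSeq's, build GRCm38.p6, positions are GENCODE's on the same build, and shares of 50-base stretches were counted against all GENCODE transcripts.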

Additional observations from a re-analysis of the deposited data

Results flagged for a closer look

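In a group of 4 libraries a single library was flagged when its gap to the nearest other exceeded, as a share of the group's range, Dixon's 95% critical value for 4 values, which chance alone gives in about 1 of 20 groups. Of 314 groups (157 genes in L_O and H_O) 23 were flagged, 7 of them for H_O replicate 2. H_O replicate 2 was above the 3 other H_O libraries for Sgk1 (511 CPM, others 431 to 441), Gbp9 (16.3, others 9.88 to 10.5), Apoc2 (11.2, others 6.63 to 7.13), Srebf2 (158, others 149 to 150), Htra1 (6.93, others 6 to 6.1), Lyz2 (17313, others 15882 to 16078) and Prdx1 (1798, others 1693 to 1706). In H_O replicate 1, Marveld1 (60.5 CPM, others 50.9 to 52.3) and Ddit3 (21.3, others 18.2 to 18.7) were high. In H_O replicate 3, Apoe (7189 CPM, others 6576 to 6668) and Fcgrt (21.3, others 18.4 to 18.7) were high and Spp1 (1484, others 1636 to 1652) was low.

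In L_O replicate 1, Hspa4l (50.5 CPM, others 47.7 to 47.9), Gbp8 (37, others 24.2 to 25.1), Csf1r (632, others 577 to 585), Lyz2 (15246, others 14664 to 14728) and Canx (525, others 503 to 507) were high and S100a6 (86.8, others 99.4 to 99.9) was low. In L_O replicate 2, Itgax (410 CPM, others 381 to 384) was high, and Abca1 (157, others 176 to 177) and mt-Nd6 (313, others 347 to 353) were low. In L_O replicate 4, Slc40a1 (40.1 CPM, others 36.7 to 36.9) and Slc2a6 (29.5, others 28.1 to 28.3) were high.

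The change with glucose differed between cells with and without ox-LDL for Ccr1 (difference 0.65 on the log2 scale) and Gas6 (-0.46), each with an edgeR adjusted p of 0.0381.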

How the results depend on the processing

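The counts of genes higher and lower in H_O were 718 and 901, and 367 and 459 in the fit on all 16 libraries, which differs by including the ox-LDL-free libraries in the spread. The other alternatives kept both counts within 1.5 times, with 517 to 597 higher and 639 to 780 lower when single libraries were left out. The osmotic, amino acid response and cholesterol counts stayed within 1.5 times in all 17 alternatives. Interferon-stimulated genes gave 5 to 17 members lower when single libraries were left out, 17 without H_O replicate 2. The 5 mesothelial and fibroblast markers higher became 2 with limma-voom, 0 in the fit on all 16 libraries and 2 to 5 without single libraries. The difference between contrasts, 1 gene in each direction, became 78 and 17 with DESeq2, 0 and 0 with limma-voom, and 0 to 41 and 0 to 12 without single libraries, the highest without L_C replicate 4. H_C against L_C (340 higher, 574 lower) ranged over 131 to 906 and 295 to 1123 without single libraries. Apart from what these settings change by construction, the cause was not tested.

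With a replicate block the counts were 607 and 799, the fibroblast markers 3 and the differences 0 and 0. Same-numbered L_O and H_O libraries had correlations of their deviations of -0.03, -0.11, -0.17 and 0.03. No L_O library correlated best with its own number. Pairing by number was thus not seen, but deviations from a mean of 4 libraries could not show a weak pairing. Of 2668 combinations of a named gene and an alternative, 2488 kept direction and side of the threshold, 175 lost the call, 5 gained it and 0 reversed, and 109 of 157 genes held in all. Precision is limited for genes near 1 CPM, such as Olr1, Fxyd2 and Spic.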

Other observations

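Some genes varied widely between replicates of both groups. Ifit2, an interferon-induced gene, was at 39, 1.1, 27.3 and 27 CPM in L_O and 18.8, 29.3, 19.5 and 0.936 CPM in H_O, with 1 very low library in each group. Evi2b, a leukocyte membrane gene, ranged from 4.86 to 65.6 CPM in L_O and from 3.79 to 29.2 CPM in H_O. The predicted gene Gm20716 was listed at 0 in L_O replicate 3 and H_O replicate 2 and at 35 to 73.2 CPM in the 6 other libraries. Obp1a and Mucl2, genes known from secretory epithelium, varied together in H_O, at 7.96, 15.8, 1.34 and 32.5 CPM and at 5.67, 17.1, 1.29 and 29.3 CPM in replicates 1 to 4, and lay between 5.93 and 13.9 CPM in L_O. None of these genes passed the test between H_O and L_O (edgeR adjusted p between 0.462 and 0.879).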
